A study of Homo sapiens with 10 samples.

Results

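The enzymes that add or remove methyl and acetyl groups on the lysines of histones were followed with and without silencing of PAR1 in PANC-1, a long-established line of human pancreatic ductal adenocarcinoma. Members were chosen by gene symbol: all listed genes named KDM, KMT, SETD, HDAC, SIRT or KAT followed by a number, together with EZH1, EZH2, EED, SUZ12, EP300, CREBBP, EHMT1, EHMT2, SUV39H1, SUV39H2, NSD1 and DOT1L. The rule found 71 of the 27884 genes in the files, and all 71 passed the filter on low counts. They comprise 21 methyltransferase genes, 17 demethylase genes, 9 acetyltransferase genes, 18 deacetylase genes and 6 SET-domain genes without a settled histone role. Counted with the methyltransferase and writer genes are EED and SUZ12, subunits of a methyltransferase complex that are not themselves catalytic. The 5 shPAR1 libraries came from cells transduced with a lentivirus for a hairpin RNA that targets F2R, the gene for PAR1, and the 5 shCtrl libraries came from cells with a control hairpin. All cells had been selected with puromycin and grown on an adherent surface in medium with serum. A single hairpin was used against F2R, so an effect of losing PAR1 and an effect particular to that hairpin cannot be told apart, and the sources do not say whether the 5 of a group stem from separate transductions or cultures. The p-values measure the spread between these libraries, which may be technical.

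Histone lysine methylation is written by methyltransferases, most of which hold a SET domain, and erased by demethylases of the flavin-dependent KDM1 family or of the JmjC family. Its meaning depends on the residue: methylated H3K4 and H3K36 go with transcribed genes, methylated H3K27 marks genes held silent by Polycomb repressive complex 2 (PRC2), and methylated H3K9 marks heterochromatin. Acetylation is written by acetyltransferases such as p300 and CBP and goes with active promoters and enhancers. Zinc-dependent deacetylases (HDACs) and NAD-dependent sirtuins erase it, and several of these act mainly on proteins other than histones. In the adult pancreas, Polycomb and its opponents are known for their part in holding acinar and ductal identity.

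Values are log2(normalized count + 1), and a difference of 1 stands for a factor of 2. The label check held: F2R stood at 10.20, 10.24, 10.32, 10.18 and 10.21 in shPAR1 libraries 1 to 5 and at 11.81, 11.75, 11.75, 11.80 and 11.82 in shCtrl libraries 6 to 10, with no overlap. Library totals ranged from 15335264 to 25369056 counts, and the members together took 0.551% to 0.594% of the counts of a shPAR1 library and 0.547% to 0.586% of those of a shCtrl library. Of 5 ductal epithelium markers KRT8, KRT18 and KRT19 were abundant in both groups and KRT7 was close to the filter, and 4 of the 5 were lower in shPAR1 cells, with KRT19 at 12.99 ± 0.106 against 13.81 ± 0.0411 (SD, n = 5). Their summed level ran from 15.12 to 15.35 in shPAR1 and from 15.71 to 15.79 in shCtrl libraries. Of 5 fibroblast markers DCN and LUM were not listed, 2 were higher and 1 was lower. COL3A1 stood at 11.50 ± 0.0647 after silencing against 6.22 ± 0.283 in control cells, PDGFRB at 6.60 ± 0.174 against 6.23 ± 0.0874 and THY1 at 9.29 ± 0.101 against 10.05 ± 0.0717 (SD, n = 5). Their summed level ran from 11.75 to 11.87 against 10.14 to 10.28, with COL3A1 as its largest part after silencing and THY1 in control cells. No acinar, endothelial or endocrine marker passed the filter, and the only immune marker that did, CD14, was not called. The share of counts from the mitochondrial genome was 7.37% to 9.08% with the F2R hairpin and 5.71% to 7.07% with the control hairpin. Scaling that left these genes out called the same numbers of members, 18 higher and 13 lower. This scaling takes a median over all genes and shifted log2 fold changes by a median of only 3e-04. It therefore cannot show whether the difference in mitochondrial share bears on the calls. In whole cultures less RNA per cell and fewer cells of a kind cannot be told apart.

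Silencing of PAR1 went with small changes in many of these genes. With limma and Benjamini-Hochberg adjustment at 0.05, 31 of the 71 members were called (43.7%), beside 40.9% of the 17518 genes tested. Of the members 18 were higher in shPAR1 cells (25.4%, beside 19.0% of all genes) and 13 were lower (18.3%, beside 21.9%). The 5 libraries of each group did not overlap for 21 members (29.6%, beside 29.2% of all genes). The share of members called was therefore close to that of all genes, while the sizes were smaller: the median absolute log2 fold change was 0.12 among the members and 0.20 among all genes tested, and 3 members (4.23%), HDAC9, KDM6B and HDAC11, passed 0.5 in either direction, beside 14.8% of all genes. The members also lay at a higher median level, 10.11, than all genes tested, 8.19. The signed median was 0.04 for the members and -0.0046 for all genes.

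**Figure D1:**
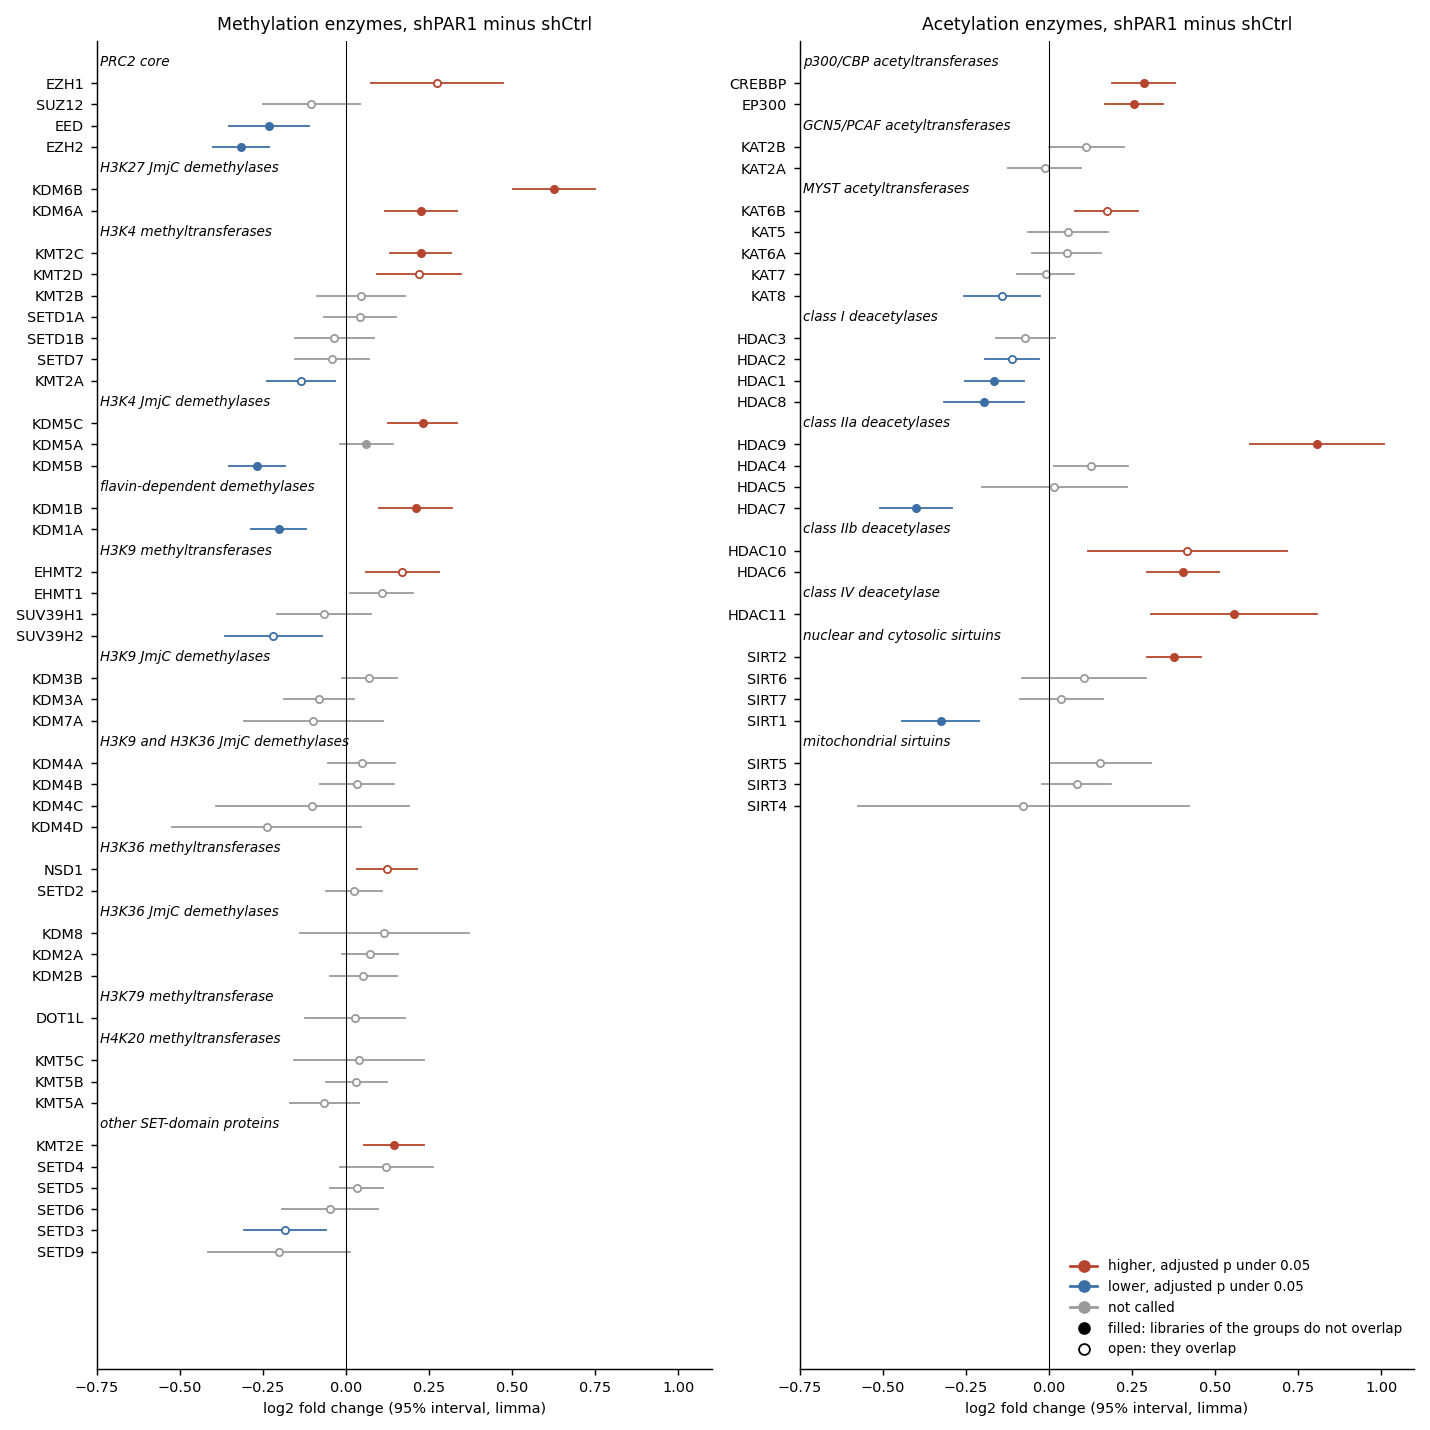
Log2 fold change of each of the 71 members, shPAR1 minus shCtrl (horizontal axis, log2 units, n = 5 libraries per group), with its 95% interval from limma, methylation enzymes on the left and acetylation enzymes on the right, grouped by role. Red and blue points passed an adjusted p of 0.05 as higher (18) or lower (13), grey points (40) did not, and filled points mark genes whose libraries do not overlap between the groups. HDAC9 lies farthest to the right at 0.81 and HDAC7 farthest to the left at -0.40.

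Writers and erasers were called at like rates. Of 30 writer genes 8 were higher and 5 lower, with a median log2 fold change of 0.04, and of 35 eraser genes 9 were higher and 7 lower, with a median of 0.05. The groups did not overlap for 15 of 35 eraser genes (42.9%) and 5 of 30 writer genes (16.7%), beside 29.2% of all genes. This is a description without a test. All 3 members past 0.5 were counted with the erasers by their family, although HDAC11 is also a remover of fatty acyl groups. Enzyme activity was not measured for any of them. By class, 5 methyltransferase genes were higher and 4 lower of 21, with the noncatalytic EED among the lower. Of 17 demethylase genes 4 were higher and 2 lower. Of 9 acetyltransferase genes 3 were higher and 1 lower, and of 18 deacetylase genes 5 were higher and 5 lower. In that order 42.9%, 35.3%, 44.4% and 55.6% of a class were called, beside 40.9% of all genes tested.

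Among the H3K27 enzymes EZH2, the catalytic subunit of PRC2 that trimethylates H3K27, and EED, the subunit that binds the finished mark, were lower in shPAR1 cells, whereas the H3K27 demethylase genes KDM6A and KDM6B were higher. KDM7A, which removes methyl groups from H3K27 as well as from H3K9 and is counted here with the H3K9 enzymes, was not called, at -0.10. EZH2 stood at 10.15, 10.09, 10.12, 10.13 and 10.16 in shPAR1 libraries 1 to 5 and at 10.41, 10.44, 10.45, 10.48 and 10.43 in shCtrl libraries 6 to 10. The groups lay apart with little spread inside either, at 10.13 ± 0.0279 and 10.44 ± 0.0263 (SD, n = 5), and the normalized count of EZH2 fell by 19.7% (log2 fold change -0.32, standard error 0.0398, adjusted p = 4.39e-06 from limma). EED was measured at 9.51, 9.27, 9.29, 9.41 and 9.49 in shPAR1 and at 9.71, 9.57, 9.62, 9.61 and 9.63 in shCtrl libraries. Its highest shPAR1 library stayed below its lowest shCtrl library (log2 fold change -0.23, standard error 0.0568, adjusted p = 0.00308 from limma). SUZ12, the scaffold that the complex needs to stand, had values of 10.53, 10.19, 10.40, 10.39 and 10.63 in shPAR1 and 10.65, 10.47, 10.44, 10.48 and 10.62 in shCtrl libraries. These overlapped, and the log2 fold change of -0.10 had a 95% interval of -0.25 to 0.04, so a fall like that of EED lies within it. It was -0.04 without shPAR1 library 2 and -0.16 without shPAR1 library 5, and not called in either.

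EZH1, the alternative catalytic subunit of PRC2 that prevails in cells that do not divide, went the other way from EZH2. Its values were 7.66, 7.46, 7.43, 7.68 and 7.30 in shPAR1 and 7.18, 7.40, 7.36, 7.12 and 7.10 in shCtrl libraries. The groups overlapped at their edges, and EZH1 was called higher (log2 fold change 0.27, standard error 0.0944, adjusted p = 0.0275 from limma). The call was lost when shPAR1 library 1 or 4 or shCtrl library 6, 9 or 10 was left out, at log2 fold changes of 0.23 to 0.26. Per kilobase of merged exons EZH1 made up 20.01% ± 1.82 of the EZH1 and EZH2 transcripts together after silencing and 14.2% ± 1.25 in control cells (SD, n = 5), with ranges of 17.5% to 22.0% and 12.96% to 15.7%. Per kilobase of the canonical transcript the same shares were 8.51% and 5.81%, so the size of the share depends on the length used and its direction does not.

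KDM6B (JMJD3), an inducible H3K27 demethylase, changed most among the methylation enzymes. It stood at 9.53, 9.68, 9.64, 9.42 and 9.44 in shPAR1 and at 8.86, 8.94, 8.88, 8.98 and 8.93 in shCtrl libraries. Every shPAR1 library lay above every shCtrl library, and its normalized count rose by 54.9% (log2 fold change 0.63, standard error 0.0586, adjusted p = 1.14e-07 from limma). KDM6A (UTX), its X-linked paralog and a subunit of the KMT2C and KMT2D complexes, had values of 9.63, 9.67, 9.53, 9.66 and 9.59 in shPAR1 and 9.34, 9.36, 9.37, 9.35 and 9.52 in shCtrl libraries. The groups were close but apart, with shCtrl library 10 set off from the other shCtrl libraries toward the shPAR1 values (log2 fold change 0.23, standard error 0.0512, adjusted p = 0.00171 from limma, and 0.26 without that library). KDM6B took 78.1% ± 1.57 of the summed KDM6A and KDM6B level per kilobase of merged exons after silencing and 73.0% ± 1.18 in control cells (SD, n = 5). Per kilobase of the canonical transcript it took 46.3% and 39.5%, so which of the pair is the more abundant is not settled here.

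**Figure D2:**
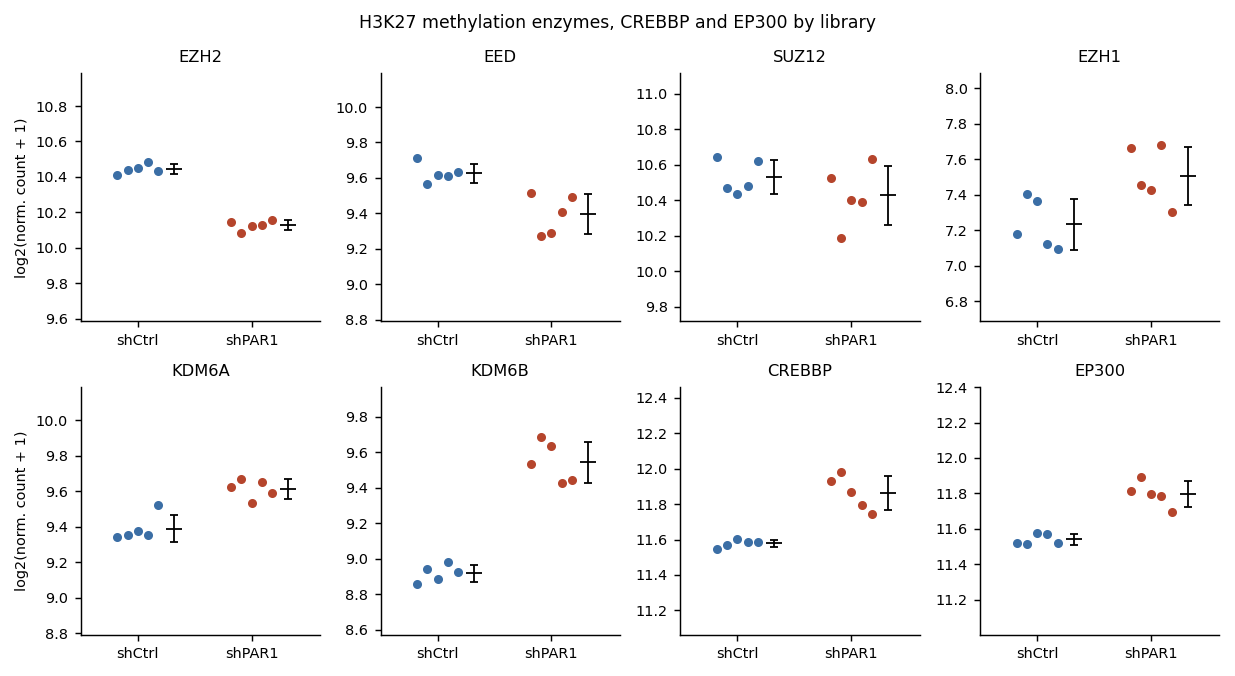
Log2(normalized count + 1) in each library (points, blue for the 5 shCtrl and red for the 5 shPAR1 libraries, in order of library number) for the 4 PRC2 core genes, the H3K27 demethylase genes KDM6A and KDM6B and the acetyltransferase genes CREBBP and EP300, with the mean and SD in black. The axes do not start at 0. EZH2 and EED lie lower and KDM6A, KDM6B, CREBBP and EP300 higher in shPAR1 cells with no overlap, while SUZ12 and EZH1 overlap.

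Within each library the mean log2 level per kilobase of the 4 PRC2 genes minus that of the 2 KDM6 genes was 0.77, 0.47, 0.62, 0.75 and 0.77 in shPAR1 libraries and 1.27, 1.20, 1.22, 1.14 and 1.11 in shCtrl libraries. The groups did not overlap, and the means were 0.676 ± 0.133 and 1.19 ± 0.064 (SD, n = 5), a difference of -0.51 on the log2 scale. Most of it lay with the erasers, whose mean was 5.77 in shPAR1 and 5.35 in shCtrl cells, while that of the writers was 6.44 and 6.54. For the other modifications the same difference moved by 0.04 (H3K4, 7 writers and 5 erasers), 0.05 (H3K9, 4 and 7), -0.01 (H3K36, 2 and 3) and -0.01 (acetyl-lysine, 9 and 18), and the groups overlapped in each. The acetyl-lysine value pools roles that moved in opposite directions. Among its erasers class I had a median log2 fold change of -0.14 and class IIb of 0.41. Mitochondrial sirtuins, at a median of 0.08, are counted there as well. Each gene was counted at a single modification, so the KDM4 genes, which act on H3K9 and H3K36, entered at H3K9 only. The same holds for KDM7A, which acts on H3K9 and H3K27 and stood at -0.10, not called. The H3K27 erasers are thus KDM6A and KDM6B alone, both called higher, and the difference with KDM7A among them was not computed. These differences are descriptions of transcripts without a test, and neither protein nor the marks themselves were measured.

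**Figure D3:**
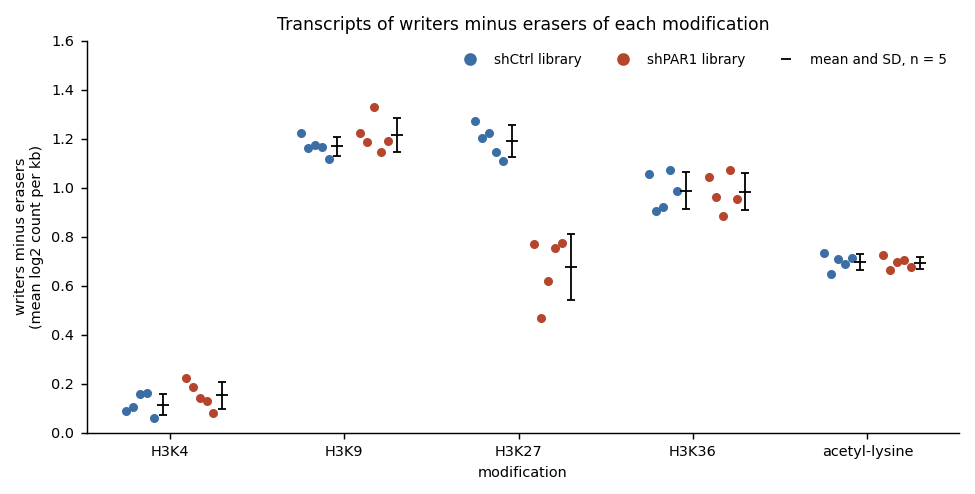
Mean log2 normalized count per kilobase of the writer genes minus that of the eraser genes of a modification (vertical axis, log2 units), 1 point per library, blue for shCtrl and red for shPAR1, with the mean and SD of 5 libraries in black. The H3K27 groups lie apart (0.676 and 1.19), and the groups of the other 4 modifications overlap.

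The promoters of these 4 catalytic genes are shown because EZH2 was called lower while its paralog EZH1 and the erasers KDM6A and KDM6B were called higher. They run from 250 bases before to 50 bases after the transcription start (RefSeq, GRCh38.p14), 5′ to 3′ on the strand of the gene. Capitals mark a CACGTG E-box, the word that Myc and related factors bind, or 1 of 4 words that E2F factors, which drive S-phase genes, are known to bind (TTTCCCGC, TTTCGCGC, TTTGCCGC and TTTGGCGC, on either strand). None of the E2F words overlaps the E-box.
EZH2, chr7:148884242-148884541, minus strand: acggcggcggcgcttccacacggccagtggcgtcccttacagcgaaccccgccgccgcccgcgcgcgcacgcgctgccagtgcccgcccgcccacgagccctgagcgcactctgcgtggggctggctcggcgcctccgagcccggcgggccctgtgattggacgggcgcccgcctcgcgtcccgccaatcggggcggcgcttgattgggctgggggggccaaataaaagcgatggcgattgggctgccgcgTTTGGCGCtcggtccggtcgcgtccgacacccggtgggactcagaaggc
EZH1, chr17:42744991-42745290, minus strand: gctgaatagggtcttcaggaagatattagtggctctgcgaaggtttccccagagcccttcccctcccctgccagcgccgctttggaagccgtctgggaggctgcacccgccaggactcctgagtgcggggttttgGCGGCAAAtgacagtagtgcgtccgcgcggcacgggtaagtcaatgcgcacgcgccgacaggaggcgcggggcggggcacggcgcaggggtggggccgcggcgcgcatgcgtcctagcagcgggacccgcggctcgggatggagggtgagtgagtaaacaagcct
KDM6B, chr17:7833967-7834266, plus strand: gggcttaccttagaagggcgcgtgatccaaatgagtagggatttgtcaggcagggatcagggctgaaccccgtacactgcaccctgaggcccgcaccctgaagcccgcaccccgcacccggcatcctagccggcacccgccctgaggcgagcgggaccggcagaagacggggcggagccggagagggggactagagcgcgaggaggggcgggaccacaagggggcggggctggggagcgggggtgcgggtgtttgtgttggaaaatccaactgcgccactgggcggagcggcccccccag
KDM6A, chrX:44872938-44873237, plus strand: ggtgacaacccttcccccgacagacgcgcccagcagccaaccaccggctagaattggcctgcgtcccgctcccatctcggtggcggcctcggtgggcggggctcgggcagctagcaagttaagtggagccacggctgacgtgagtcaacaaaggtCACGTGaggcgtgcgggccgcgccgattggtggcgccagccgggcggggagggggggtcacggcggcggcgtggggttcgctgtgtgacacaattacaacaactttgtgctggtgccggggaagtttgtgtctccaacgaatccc
The EZH2 window held 1 E2F word just past the start site, and the EZH1 window held 1 as well, 115 bases upstream. KDM6A had an E-box 95 bases upstream, and the KDM6B window had neither word. Windows were found for 65 members and for 11501 of the genes tested. An E2F word was present in 5 of the 65 members (7.7%), beside 5.4% of all these windows, and an E-box in 9 (13.8%), beside 10.0%. Of the 12 members called lower that had a window, 1 (EZH2) held an E2F word and 1 (SIRT1) an E-box, and of the 18 called higher 2 (EZH1 and KDM1B) held an E2F word and 3 (EHMT2, KDM6A and KMT2D) an E-box. Over all tested genes with a window, an E2F word was present in 7.7% of those called lower, 3.8% of those called higher and 4.9% of those not called. For the E-box these shares were 9.6%, 10.8% and 10.0%. A part of either word in the calls was not tested. A match is a string of letters and not a measured binding site.

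PRC2 has further subunits, some of which steer it to chromatin. Of a list of 10 further genes 5 were lower and 2 higher, with a median log2 fold change of -0.24. Among all genes tested 21.9% were lower and 19.0% higher. The 2 higher genes were JARID2 at 0.23 (standard error 0.069, adjusted p = 0.0128 from limma) and EPOP at 0.18 (standard error 0.069, adjusted p = 0.0461 from limma). The 5 lower genes include RBBP4 at -0.43 and RBBP7 at -0.33, histone-binding subunits that other complexes share. LCOR, whose locus also encodes a PRC2 partner, was lowest at -0.59 (standard error 0.09, adjusted p = 3.8e-05 from limma), followed by MTF2, a Polycomb-like subunit, at -0.44 (standard error 0.0713, adjusted p = 7.58e-05 from limma). A list of 26 cell cycle genes moved in the direction of the lower genes: 26 of 26 were lower in shPAR1 cells, with a median of -0.36. Their summed level ran from 16.42 to 16.54 in shPAR1 and from 16.78 to 16.84 in shCtrl libraries. EZH2, EED and RBBP4 are known to be higher in dividing cells, and the part of the cell cycle genes in the fall of the PRC2 genes was not tested.

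At H3K4 the picture was mixed on both sides. KMT2C and KMT2D, the large methyltransferases that prime enhancers, were higher in shPAR1 cells, and KMT2A, which acts at promoters, was slightly lower. KMT2C had values of 11.56, 11.56, 11.45, 11.46 and 11.42 in shPAR1 and 11.26, 11.22, 11.31, 11.34 and 11.20 in shCtrl libraries. They did not overlap (log2 fold change 0.22, standard error 0.0435, adjusted p = 0.000425 from limma), though KMT2C has near-identical partial copies elsewhere in the genome and its count is uncertain for that reason. For KMT2D the log2 fold change was 0.22 (standard error 0.06, adjusted p = 0.00684 from limma), and shPAR1 library 5 lay inside the shCtrl range. That of KMT2A was -0.13 (standard error 0.049, adjusted p = 0.0352 from limma), a call lost when shPAR1 library 3, 4 or 5 or shCtrl library 6, 8 or 9 was left out, at values from -0.14 to -0.10. The remaining H3K4 methyltransferase genes, KMT2B, SETD1A, SETD1B and SETD7, were not called, at 0.05, 0.04, -0.04 and -0.04. A list held 13 noncatalytic subunits of the KMT2 and SETD1 complexes (COMPASS), some common to all and some particular to a few of them. Of these 6 were lower and 0 higher by limma (0 higher also at an unadjusted p under 0.05 and with voom). Among all genes tested 21.9% were lower and 19.0% higher. NCOA6, a coactivator in the KMT2C and KMT2D complexes, fell most, at -0.50 (standard error 0.0467, adjusted p = 1e-07 from limma). DPY30, a core subunit of all these complexes, followed at -0.29 (standard error 0.0759, adjusted p = 0.00518 from limma).

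Among the H3K4 erasers paralogs moved in opposite directions. KDM5B (JARID1B), which strips trimethyl groups from promoters, stood at 11.56, 11.62, 11.55, 11.52 and 11.46 in shPAR1 and 11.80, 11.77, 11.79, 11.88 and 11.80 in shCtrl libraries. All shPAR1 libraries lay below all shCtrl libraries (log2 fold change -0.27, standard error 0.0401, adjusted p = 3.35e-05 from limma), also without shCtrl library 9, the highest, at -0.25. KDM5C, its X-linked paralog, had values of 11.82, 12.01, 11.96, 11.87 and 11.79 in shPAR1 and 11.54, 11.68, 11.67, 11.72 and 11.69 in shCtrl libraries. These were higher and again apart (log2 fold change 0.23, standard error 0.0488, adjusted p = 0.000931 from limma). KDM5A moved by 0.06 and was not called (adjusted p = 0.204 from limma), although its libraries did not overlap either. As a share of the 3 KDM5 genes per kilobase, KDM5B went from 26.5% ± 0.58 in shCtrl to 21.0% ± 0.42 in shPAR1 cells and KDM5C from 48.3% ± 1.22 to 54.0% ± 1.34 (SD, n = 5).

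The flavin-dependent pair split in the same manner. KDM1A (LSD1), the H3K4 demethylase of the CoREST complex, was at 11.68, 11.80, 11.81, 11.81 and 11.74 in shPAR1 and 11.98, 11.92, 11.95, 12.03 and 11.96 in shCtrl libraries. It was lower in every shPAR1 library (log2 fold change -0.20, standard error 0.0394, adjusted p = 0.000446 from limma). KDM1B (LSD2), which acts in gene bodies, was at 9.27, 9.18, 9.30, 9.14 and 9.26 in shPAR1 and 9.10, 8.97, 9.00, 9.02 and 9.02 in shCtrl libraries. Here the shPAR1 values were the higher ones, without overlap (log2 fold change 0.21, standard error 0.0523, adjusted p = 0.00351 from limma).

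Of the 4 H3K9 methyltransferase genes 1 was lower and 1 higher. SUV39H2, which trimethylates H3K9, stood at 9.23, 8.90, 9.16, 9.09 and 9.31 in shPAR1 and 9.47, 9.36, 9.29, 9.27 and 9.40 in shCtrl libraries. The groups overlapped through shPAR1 library 5, and the gene was called lower (log2 fold change -0.22, standard error 0.0695, adjusted p = 0.0174 from limma). Its paralog SUV39H1 was not called, at -0.07 with a 95% interval of -0.21 to 0.08, and 21.2% of its exon bases are shared with a gene on the opposite strand. EHMT2 (G9a), which writes H3K9 dimethylation, was higher at 0.17 (standard error 0.0525, adjusted p = 0.0147 from limma), while EHMT1 (GLP), its partner, stood at 0.11 with adjusted p = 0.0645 from limma. None of the 7 H3K9 demethylase genes (KDM3A, KDM3B, KDM7A and KDM4A to KDM4D) was called, with log2 fold changes from -0.24 (KDM4D) to 0.07 (KDM3B), and the same held for the H4K20 methyltransferase genes KMT5A, KMT5B and KMT5C and the H3K79 methyltransferase gene DOT1L, at -0.06, 0.03, 0.04 and 0.03. In these groups limma called 0 genes, also at an unadjusted p under 0.05, and voom called 0.

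At H3K36 the dimethyltransferase gene NSD1 had values of 12.16, 12.17, 12.12, 12.10 and 12.02 in shPAR1 and 12.02, 11.98, 11.99, 12.08 and 11.89 in shCtrl libraries. They overlapped in part, and NSD1 was called higher by a small margin (log2 fold change 0.12, standard error 0.0427, adjusted p = 0.0286 from limma). This call was lost under trimmed-mean factors, at 0.11, and without shPAR1 library 2 or shCtrl library 7, 8 or 10, at 0.10 to 0.12. SETD2, which writes trimethylated H3K36 behind RNA polymerase II, stood at 0.02 with a 95% interval of -0.06 to 0.11, so any change of this gene was small. The genes counted here as H3K36 erasers, KDM2A, KDM2B and KDM8, were not called, at 0.07, 0.05 and 0.12. KDM4A to KDM4D act on H3K36 as well as on H3K9 and are counted with the H3K9 enzymes. They were not called either, at 0.05, 0.03, -0.10 and -0.24. Of 16 other methyltransferases in a separate list 5 were lower and 0 higher (the same by limma at an unadjusted p under 0.05 and by voom). Among all genes tested 21.9% were lower and 19.0% higher. The lower genes included PRMT6, an arginine methyltransferase, at -0.28 (standard error 0.0747, adjusted p = 0.00518 from limma) and NSD2, a relative of NSD1, at -0.24 (standard error 0.0415, adjusted p = 0.000146 from limma). Of 7 other demethylases 2 were higher and 3 lower, with PHF2 at -0.45 (standard error 0.0482, adjusted p = 6.56e-07 from limma) and PHF8, a relative, at 0.24 (standard error 0.0476, adjusted p = 0.000543 from limma).

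The 6 SET-domain genes without a settled histone role held 1 higher and 1 lower gene. SETD3, a histidine methyltransferase of actin, stood at 10.01, 10.08, 10.29, 10.14 and 10.35 in shPAR1 and 10.34, 10.38, 10.31, 10.35 and 10.41 in shCtrl libraries. Its shPAR1 values were more scattered, overlapped those of shCtrl, and were lower on average (log2 fold change -0.18, standard error 0.0587, adjusted p = 0.0174 from limma). KMT2E, a SET-domain protein held to lack catalysis, was higher at 0.14 (standard error 0.043, adjusted p = 0.0122 from limma). SETD4, SETD5, SETD6 and SETD9 were not called, at 0.12, 0.03, -0.05 and -0.20.

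On the acetylation side, the paralogs CREBBP (CBP) and EP300 (p300), which acetylate H3K27 and many transcription factors, were both higher in shPAR1 cells and by about the same amount. CREBBP stood at 11.93, 11.98, 11.87, 11.79 and 11.74 in shPAR1 and 11.55, 11.57, 11.60, 11.59 and 11.58 in shCtrl libraries. The lowest shPAR1 library was above all shCtrl libraries (log2 fold change 0.29, standard error 0.045, adjusted p = 5.56e-05 from limma). EP300 stood at 11.81, 11.90, 11.80, 11.79 and 11.69 in shPAR1 and 11.52, 11.52, 11.58, 11.57 and 11.52 in shCtrl libraries. It separated likewise, and its normalized count rose by 19.6% (log2 fold change 0.26, standard error 0.0412, adjusted p = 6.8e-05 from limma). The share of EP300 in the pair per kilobase, 55.8% ± 0.68 after silencing and 56.3% ± 0.36 in control cells (SD, n = 5), overlapped between the groups.

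The other acetyltransferase genes among the members changed less than CREBBP and EP300. KAT6B (MORF), a MYST-family H3K23 acetyltransferase, had values of 10.43, 10.35, 10.38, 10.42 and 10.29 in shPAR1 and 10.20, 10.18, 10.18, 10.16 and 10.29 in shCtrl libraries. The ranges met at 10.29, and KAT6B was called higher (log2 fold change 0.17, standard error 0.0448, adjusted p = 0.00435 from limma). KAT8 (MOF), which acetylates H4K16, was called lower at -0.14 (standard error 0.0541, adjusted p = 0.0467 from limma), a call lost with no filter, with voom, and without any of shPAR1 libraries 1, 3 and 5 and shCtrl libraries 7, 8, 9 and 10, at values from -0.14 to -0.11. KAT2A (GCN5), KAT2B (PCAF), KAT5, KAT6A and KAT7 were not called, at -0.01, 0.11, 0.06, 0.05 and -0.01, and 38.6% of the exon bases of KAT5 are shared with RNASEH2C on the opposite strand. Of 8 further acetyltransferase genes 2 were higher and 1 lower, with HAT1, which acetylates newly made H4, at -0.33 (standard error 0.0416, adjusted p = 4.39e-06 from limma) and the nuclear receptor coactivator NCOA1 at 0.15 (standard error 0.0449, adjusted p = 0.0112 from limma). Of 35 noncatalytic subunits of acetyltransferase complexes 4 were higher and 12 lower, beside 19.0% and 21.9% of all genes tested. The lower genes included TADA2B of the SAGA complex at -0.59 (standard error 0.0592, adjusted p = 2.89e-07 from limma) and ING3 of the NuA4 complex at -0.34 (standard error 0.0799, adjusted p = 0.00248 from limma).

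Of the 11 zinc-dependent deacetylases 4 were higher and 4 lower (36.4% each, beside 19.0% and 21.9% of all genes tested). Class I, in which HDAC1, HDAC2 and HDAC3 are nuclear catalytic subunits of corepressor complexes, held 3 lower genes of 4 and no higher one. HDAC8, which deacetylates cohesin, stood at 9.38, 9.59, 9.65, 9.48 and 9.54 in shPAR1 and 9.70, 9.68, 9.67, 9.70 and 9.86 in shCtrl libraries. The groups were apart by a narrow gap, with shCtrl library 10 set above the rest (log2 fold change -0.20, standard error 0.0575, adjusted p = 0.0111 from limma, and -0.16 without that library). HDAC1 and HDAC2, which share the Sin3, NuRD and CoREST complexes, were both called lower, HDAC1 at -0.16 (standard error 0.0423, adjusted p = 0.00437 from limma) and HDAC2 at -0.11 (standard error 0.0384, adjusted p = 0.0282 from limma). Both are small, HDAC1 has near-identical processed copies in the genome, and the call of HDAC2 was lost without shPAR1 library 2 or 4 or shCtrl library 6 or 10, at -0.11 to -0.10. HDAC3, the catalytic subunit of the NCoR complex, was not called at -0.07 (standard error 0.0425, adjusted p = 0.203 from limma). Per kilobase of merged exons HDAC1 had the highest level of all members in shCtrl cells, at 1479 normalized counts, and HDAC9 the lowest, at 8.1. Per kilobase of the canonical transcript HDAC1 was again the highest, while SIRT4 was the lowest at 13.5, beside 14.2 for HDAC9. Which member is the lowest therefore depends on the length used.

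Class IIa, the signal-dependent deacetylases that shuttle between nucleus and cytoplasm and bind MEF2 factors, showed the largest spread. HDAC9 stood at 8.13, 7.80, 7.74, 7.94 and 8.08 in shPAR1 and 7.14, 7.21, 6.86, 7.22 and 7.23 in shCtrl libraries. It was the member that rose most, its normalized count was 75.6% higher, and the groups lay well apart (log2 fold change 0.81, standard error 0.0955, adjusted p = 2.18e-06 from limma, and 0.74 without shCtrl library 8, the lowest). HDAC7 was the most abundant of the 4 per kilobase and the member that fell most, with values of 10.19, 10.26, 10.18, 10.12 and 10.13 in shPAR1 and 10.48, 10.59, 10.58, 10.74 and 10.50 in shCtrl libraries. Again the groups did not overlap (log2 fold change -0.40, standard error 0.0516, adjusted p = 5.89e-06 from limma), and 9.7% of its exon bases lie under a gene on the opposite strand. HDAC4 and HDAC5 were not called, at 0.13 and 0.02. In the sum of the class per kilobase HDAC7 went from 60.7% ± 0.65 in shCtrl to 50.7% ± 1.01 in shPAR1 cells, HDAC4 from 30.2% ± 0.55 to 36.5% ± 1.20 and HDAC9 from 3.19% ± 0.36 to 6.20% ± 0.86 (SD, n = 5).

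Class IIb and class IV rose together. HDAC6, the cytoplasmic deacetylase of tubulin, was at 10.74, 10.89, 10.86, 10.72 and 10.71 in shPAR1 and 10.34, 10.42, 10.34, 10.50 and 10.30 in shCtrl libraries. No shCtrl library reached the lowest shPAR1 library, and the normalized count rose by 32.3% (log2 fold change 0.40, standard error 0.0509, adjusted p = 4.65e-06 from limma). HDAC11, the sole class IV enzyme and a remover of fatty acyl groups, was at 6.87, 7.08, 6.82, 7.17 and 6.76 in shPAR1 and 6.07, 6.66, 6.48, 6.33 and 6.38 in shCtrl libraries. It is a low gene with more scatter, yet its groups were apart (log2 fold change 0.56, standard error 0.118, adjusted p = 0.000959 from limma). HDAC10, a deacetylase of polyamines, was at 6.72, 7.22, 6.79, 6.82 and 6.28 in shPAR1 and 6.16, 6.36, 6.61, 6.24 and 6.38 in shCtrl libraries. The groups overlapped, with shPAR1 library 2 high and shPAR1 library 5 among the controls (log2 fold change 0.42, standard error 0.142, adjusted p = 0.0256 from limma). The call of HDAC10 was lost without shPAR1 library 2 or 4 or shCtrl library 6 or 9, at 0.30 to 0.40, and 55.8% of its exon bases are shared with MAPK12 on the same strand, so its count is uncertain.

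**Figure D4:**
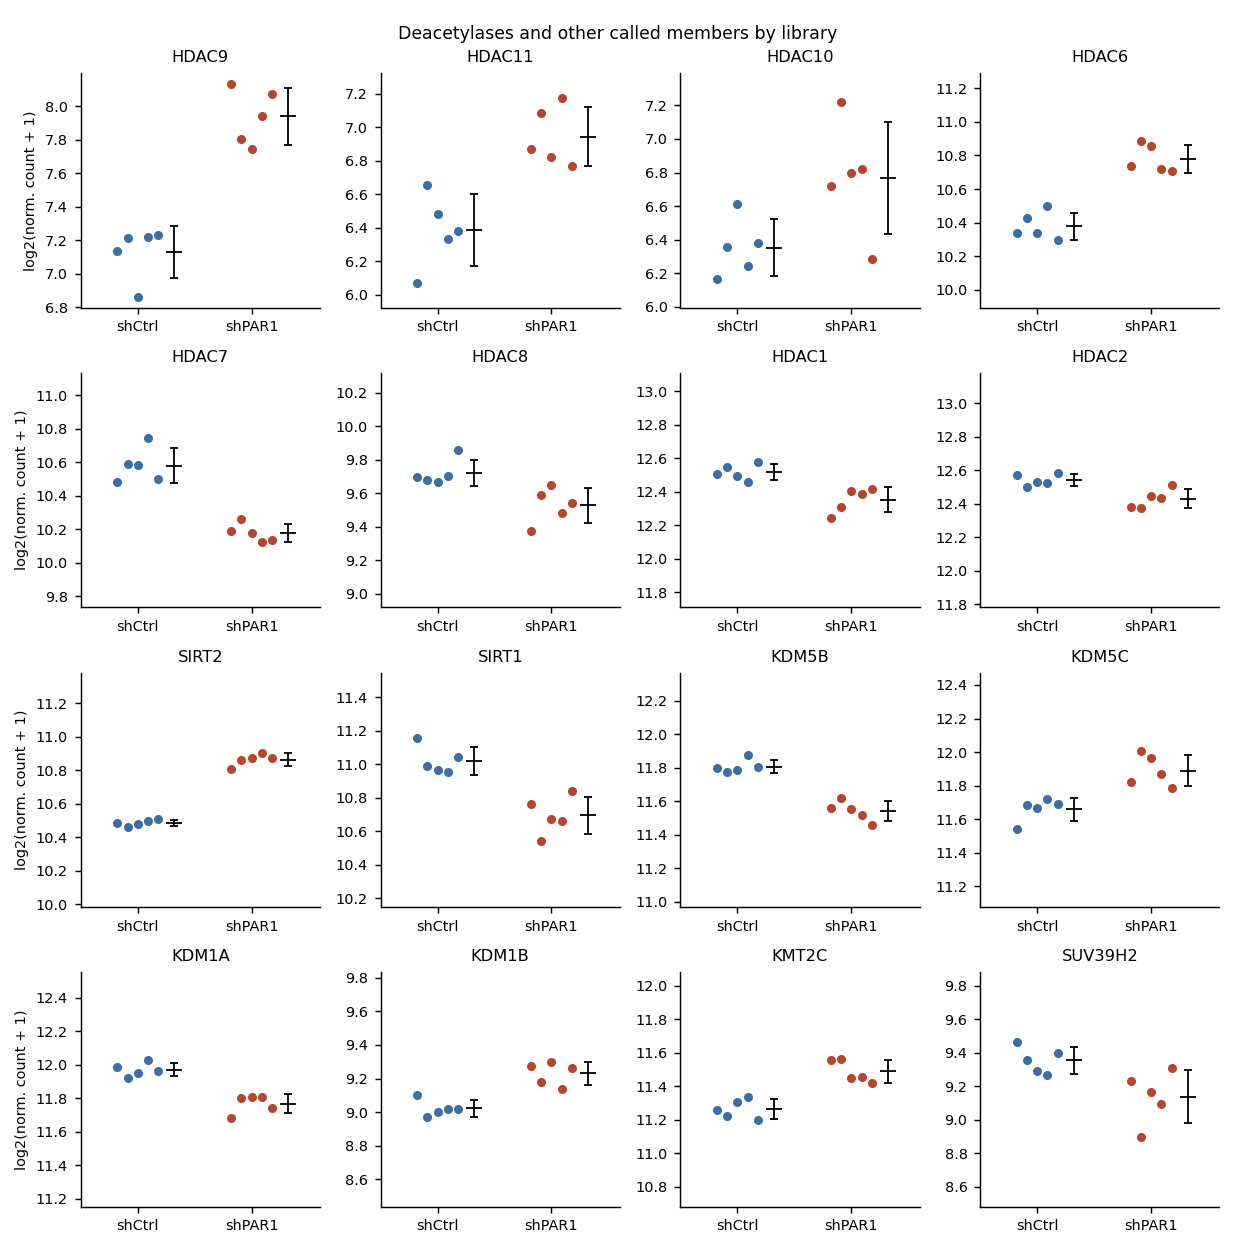
Log2(normalized count + 1) in each library (points, blue for the 5 shCtrl and red for the 5 shPAR1 libraries, in order of library number) for 8 HDAC genes, SIRT1, SIRT2, the KDM5 and KDM1 pairs, KMT2C and SUV39H2, with the mean and SD in black. The axes do not start at 0. HDAC9, HDAC11, HDAC6 and SIRT2 lie higher and HDAC7, SIRT1, KDM5B and KDM1A lower in shPAR1 cells without overlap, while HDAC10, HDAC2 and SUV39H2 overlap.

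The listed partners of the class I enzymes gave no common direction. Of 29 subunits of HDAC corepressor complexes 4 were higher and 4 lower, beside 19.0% and 21.9% of all genes tested. This list leaves out RBBP4 and RBBP7, subunits shared with PRC2 and counted there. Both were called lower, at -0.43 (standard error 0.0387) and -0.33 (standard error 0.0378). SUDS3, a Sin3 subunit, was lower at -0.99 (standard error 0.0418, adjusted p = 2.59e-12 from limma), a larger change than that of any member. GPS2, a subunit of the NCoR complex, was higher at 0.38 (standard error 0.128, adjusted p = 0.0253 from limma).

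Of the 7 sirtuins SIRT2 was higher and SIRT1 lower. SIRT2, a mainly cytosolic deacetylase of tubulin that also acts on H4K16, stood at 10.81, 10.86, 10.87, 10.91 and 10.88 in shPAR1 and 10.49, 10.46, 10.48, 10.50 and 10.51 in shCtrl libraries. Both groups were narrow and far apart for their spread (log2 fold change 0.38, standard error 0.0385, adjusted p = 3.54e-07 from limma). SIRT1, the nuclear deacetylase of p53 and of H4K16, stood at 10.76, 10.54, 10.67, 10.66 and 10.84 in shPAR1 and 11.15, 10.99, 10.96, 10.95 and 11.04 in shCtrl libraries. Its groups were apart in the opposite direction, and its normalized count fell by 20.1% (log2 fold change -0.33, standard error 0.0552, adjusted p = 0.000119 from limma). Among the 4 nuclear and cytosolic sirtuins SIRT2 took 35.1% ± 1.30 of the level per kilobase after silencing and 26.6% ± 0.73 in control cells, and SIRT1 took 42.5% ± 2.23 and 52.3% ± 2.04 (SD, n = 5). By the length of the canonical transcript SIRT1 took 20.5% and 27.7%, a fall in share as well, and SIRT2 took 50.7% and 42.2%, so which of these is the more abundant depends on the length used. SIRT6 and SIRT7 and the mitochondrial SIRT3, SIRT4 and SIRT5 were not called, at 0.11, 0.04, 0.08, -0.08 and 0.16.

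The proteins that read these marks changed more than the enzymes at their extremes. Of 30 reader genes 6 were higher and 11 lower, with a median of -0.06, beside 19.0% and 21.9% of all genes tested. MLLT3 (AF9), which binds acetylated H3K9, was higher at 1.53 (standard error 0.255, adjusted p = 9.62e-05 from limma) from a low level, and L3MBTL3, which binds methylated lysine, was higher at 1.34 (standard error 0.101, adjusted p = 6.82e-09 from limma).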

How the data were processed

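Per the labels and the study's methods, total RNA of PANC-1 cells was depleted of ribosomal RNA and sequenced, and reads were processed with FastQC 0.11.5, Trimmomatic 0.36, HISAT2 2.1.0 on GRCh38, HTSeq and the authors' count model. The sources used here give neither the annotation release nor the strand setting of the counting, so reads from a gene and an overlapping antisense gene cannot be told apart. The authors scaled each library by a size factor, added 1 and deposited log2 values, which give back whole counts to within 0.0016. Genes that reached 10 normalized counts in 5 or more libraries (17518) were fitted with limma 3.58.1 (R 4.3.3) on the deposited values, with eBayes trend switched on and Benjamini-Hochberg adjustment at 0.05. The added 1 makes fold changes of low genes appear smaller than they are. The fit was first tried on simulated counts with known changes.

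All 71 member identifiers matched GENCODE 44, which gave exon lengths and overlaps. Members and lists were chosen with earlier results of these data known. Values in every library are given for the 8 called members that rose and the 8 that fell most with a mean of at least 1 CPM, the most changed called member of each role, the PRC2 genes, EP300 and CREBBP. Each partner or reader list names its 2 most changed called genes, and from the PRC2 list RBBP4, RBBP7, JARID2 and EPOP are named as well. KDM6A and KDM5C were added to show paralogs after their values were seen, and SUV39H1 and other uncalled members are given by fold change. Alternatives were no filter, a stricter filter (1 CPM throughout either group), scaling that leaves out mitochondrial genes, trimmed-mean factors, a pseudocount of 5, voom on the recovered counts, each library left out, other level scales and, chosen after seeing the data, the length of the canonical transcript. Python 3.11.15, numpy 2.4.6, pandas 2.3.3 and matplotlib 3.10.9 were used.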

Additional observations from a re-analysis of the deposited data

Results flagged for a closer look

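A library was marked where its gap to the nearest of the other 4 libraries of its group exceeded 0.71 of the group's range. Of 142 groups of 5 libraries examined 9 were marked, and chance alone marks about 1 in 20. Among genes called, HDAC8 was high in shCtrl library 10 (9.86, the others 9.67 to 9.70), HDAC9 was low in shCtrl library 8 (6.86, the others 7.14 to 7.23), KAT8 was low in shCtrl library 6 (9.63, the others 9.79 to 9.83), KDM5B was high in shCtrl library 9 (11.88, the others 11.77 to 11.80) and KDM6A was high in shCtrl library 10 (9.52, the others 9.34 to 9.37). Without the marked library their log2 fold changes were -0.16, 0.74, -0.18, -0.25 and 0.26, and each passed the threshold. Among genes not called, KDM4D was high in shCtrl library 9 (6.49, the others 6.17 to 6.25), KDM5A was low in shPAR1 library 3 (10.73, the others 10.75 to 10.76), KDM8 was low in shPAR1 library 4 (6.16, the others 6.50 to 6.62) and SETD4 was high in shCtrl library 8 (8.33, the others 8.13 to 8.17). Without the marked library these stood at -0.18, 0.07, 0.20 and 0.16, none of them called.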

How the results depend on the processing

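Over the 6 settings that kept all libraries, 17 to 18 members were called higher and 12 to 13 lower. Leaving out 1 library gave 16 to 20 and 11 to 12, and the H3K27 difference between writers and erasers ran from -0.54 to -0.46. The single acetyltransferase gene called lower, KAT8, made a count of 0 with no filter, with voom, and in part of the fits without 1 library (0 to 1). Methyltransferase genes called higher numbered 3 to 6 in those fits, with 3 without shCtrl library 10. The difference between writers and erasers ran from 0.021 (without shPAR1 library 1) to 0.057 for H3K4 and from 0.019 (without shPAR1 library 3) to 0.065 for H3K9. Values near 0 changed sign when 1 library was left out. The difference between writers and erasers ran from -0.028 to 0.020 for H3K36 and from -0.018 to 0.0035 for acetyl-lysine, and the log2 fold change ran from -0.017 to 0.077 for DOT1L, from -0.047 to 0.078 for HDAC5, from -0.038 to 0.019 for KAT2A, from -0.021 to 0.0046 for KAT7, from -0.028 to 0.11 for KMT5C, from -0.060 to 0.016 for SETD1B and from -0.18 to 0.076 for SIRT4, none of them called. Of 1151 alternative values over the members and F2R 1098 kept direction and side of the threshold, 33 lost a call (EZH1, HDAC10, HDAC2, KAT8, KMT2A and NSD1) and 5 gained one (EHMT1, HDAC4, KAT2B and SETD9). The difference in paralog share moved with the level scale: for EZH2 from -5.77 to -2.70 percentage points by canonical length, for KDM6B from 5.11 to 6.82 by canonical length and 6.90 by plain counts, and for HDAC9 from 3.01 to 4.21 by plain counts. Trimmed-mean factors shifted the median of all genes by -0.01. No paired analysis was possible because the groups share no replicate numbers. A standard error of about 0.05 (median 0.0525) leaves changes under 0.11 uncalled, the smallest called change among the members being 0.11, and low genes such as SIRT4 and HDAC10 are less precise.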

Other observations

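The SD over 5 libraries was larger in shPAR1 than in shCtrl cells for 54 of 71 members (76.1%), beside 68.4% of the 17518 genes tested. The median SD was 0.0898 against 0.0691 over the members and 0.142 against 0.109 over all genes tested. The libraries were not equally far from their group. In shPAR1 library 5 was the highest or lowest of its group for 41 members (57.7%) and library 4 for 20 (28.2%), and in shCtrl library 9 for 39 (54.9%) and library 7 for 17 (23.9%). Over all genes tested the shares were 47.3% for shPAR1 library 5 and 46.7% for shCtrl library 9. Library 5 was the lowest for 26 members, among them CREBBP, EP300, KMT2C, KMT2D, KDM5B and HDAC6, genes on either side of the comparison. Library 9 was the highest for 30, among them EZH2, KDM6B, HDAC7, KDM5B, KDM1A and HDAC6.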
